A study of Mus musculus with 4 samples.

Results

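The genes described here encode the enzymes of glycolysis, lactate formation and gluconeogenesis, together with the kinases that gate the entry of pyruvate into the mitochondrion. They were taken by symbol from a table of 48425 mouse genes, and all 39 symbols on the list were found. The samples are 4 libraries of freshly isolated mesothelium, each from a separate untreated C57BL/6 mouse, and the mice were 10 weeks old. Mesothelial cells are the flat epithelium that lines the peritoneal cavity. They were detached with trypsin inside the cavity after death and sorted as CD45-, Pdpn+ and Gpm6a+, that is, without the leukocyte antigen and with podoplanin and the glycoprotein Gpm6a. Sex, batch and time of collection are not given in the labels. The series has a single group, stated to stand for mesothelium at homeostasis, so the comparisons were of levels with a threshold, of isozymes within an animal, and of the animals with each other.

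Glycolysis splits glucose into pyruvate through a chain of reactions in the cytosol and yields ATP without oxygen. Hexokinase traps glucose as its phosphate, phosphofructokinase-1 commits the sugar to breakdown, and pyruvate kinase makes the final pyruvate. Lactate dehydrogenase exchanges pyruvate with lactate, while the pyruvate dehydrogenase kinases (Pdk) shut off pyruvate dehydrogenase and so hold pyruvate back from oxidation. Gluconeogenesis runs the other way, chiefly in liver and kidney, and needs its own enzymes to pass the irreversible steps. Most steps are served by several isozymes with known tissue preferences, for example Pklr in liver and erythrocytes, Pgam2 and Eno3 in muscle, and Pgk2, Ldhc and Gapdhs in sperm.

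Levels are counts-per-million (CPM), that is, estimated counts of a gene scaled by its library total, given for animals 1 to 4 in that order and as mean ± SD (n = 4). A gene was called above 1 CPM when the one-sided quasi-likelihood test of edgeR gave a Benjamini-Hochberg adjusted p under 0.05 over all 48425 genes. The libraries held 4569578, 4371817, 4554370 and 4090224 counts. For a listing of 0, 3 counts were taken as the upper limit, which corresponds to 0.657 to 0.733 CPM in a library and 0.171 CPM over the group. These limits cover counting error only and are not absolute. Isozymes and steps are compared after division by transcript length (CPM per kb). Where genes of a list are picked by mean CPM, or counts are given as shares, the order depends in part on length.

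Of the 39 genes, 28 lay above 1 CPM (71.8%), against 11943 of all 48425 genes (24.7%). Called genes were found in 16 of the 17 enzymatic steps, and the exception was fructose-1,6-bisphosphatase. The median of the mean level over the 39 was 16.0 CPM, against 0 over all genes of the table. Among the genes called it was 35.4 CPM, against 22.8 CPM over all genes called. Mean levels of at least 10 CPM were reached by 21 of the 39 and by 8792 genes of the table, and levels of at least 100 CPM by 9 and 1738. Of the 11 not called, 7 were at 0 in all 4 animals, as were 25489 genes of the table. The 39 genes together took 0.448, 0.511, 0.477 and 0.396% of the counts in animals 1 to 4 (mean 0.458 ± 0.0488%). Aldoa, Pkm and Eno1 made up 56.7 to 58.1% of that sum. In bulk RNA, fewer cells of a type and less RNA per cell cannot be told apart, here or for any difference between animals given below.

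**Figure D1:**
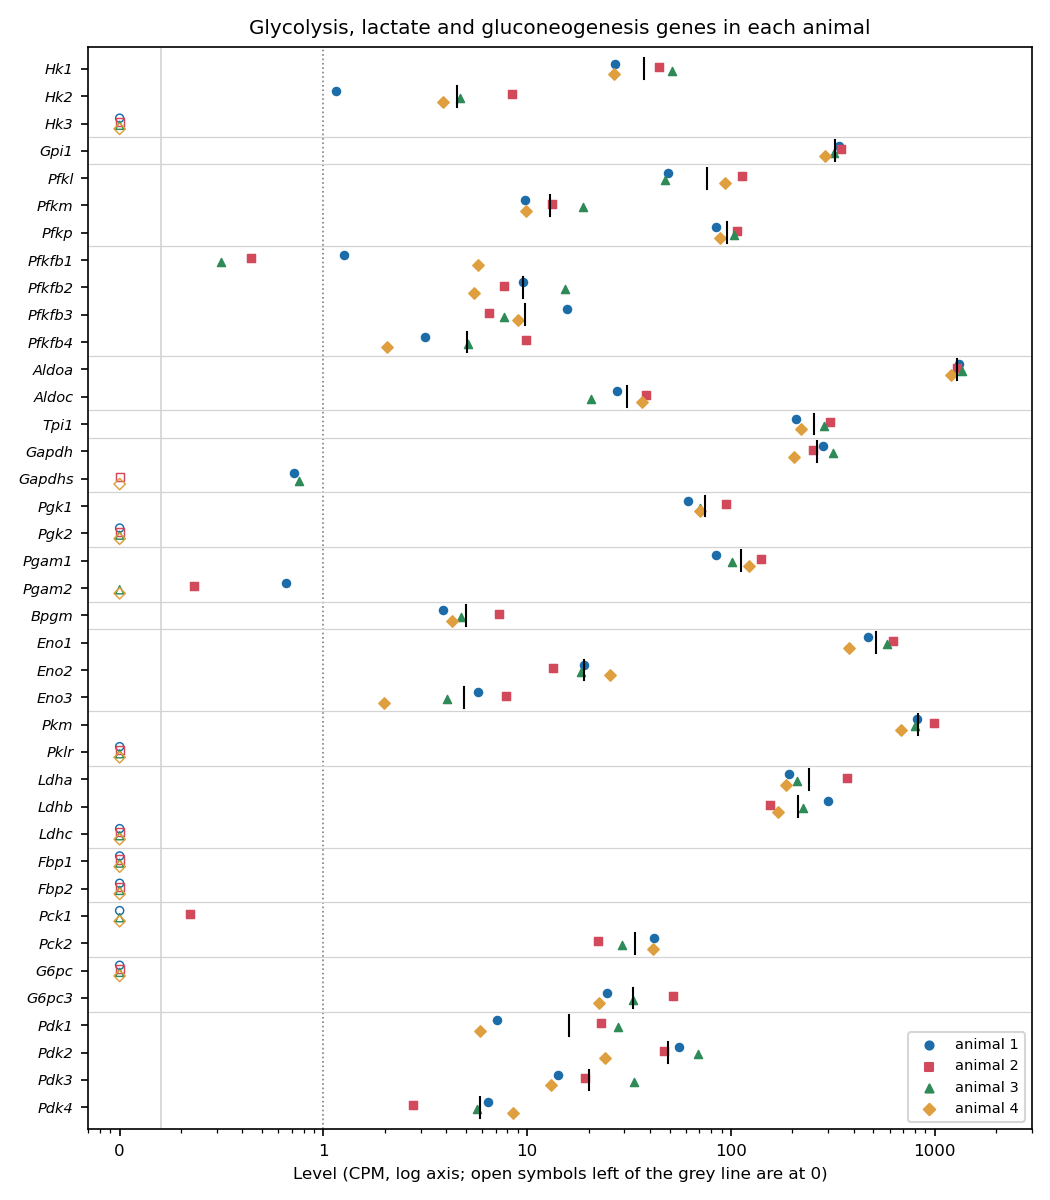
Level of each of the 39 genes in each animal in CPM on a log axis, 1 row per gene, with genes of the same step between grey lines. Symbols are the 4 animals, black ticks are means of called genes, the dotted line marks 1 CPM and open symbols at the left are values of 0; 28 genes lay above the threshold and 7 were at 0 in every animal.

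In the upper, preparatory part of the pathway, Hk1 made up most of hexokinase. Hk1, the hexokinase of most tissues (chromosome 10, 62268855 to 62379908, minus strand, GRCm38), had 26.9, 44.6, 51.1 and 26.6 CPM (37.3 ± 12.5 CPM). It supplied 88.3 to 97.1% of the step per kb. Hk2, the insulin- and hypoxia-responsive hexokinase of muscle and fat, had 1.15, 8.42, 4.70 and 3.85 CPM, with animal 1 lowest and animal 2 highest. Hk3, found mainly in myeloid cells, was at 0 throughout. Gpi1, glucose-6-phosphate isomerase (chromosome 7, 34201330 to 34230336), was even across animals, with 340, 347, 322 and 289 CPM (324 ± 26.0 CPM).

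All 3 subunit genes of phosphofructokinase-1 were called. Pfkp, the platelet-type subunit (chromosome 13, 6579768 to 6648777), had 84.5, 107, 104 and 88.0 CPM (95.8 ± 11.2 CPM). Pfkl, the liver-type subunit, had 49.1, 113, 47.5 and 93.8 CPM (76.0 ± 32.9 CPM), with animals 2 and 4 well above animals 1 and 3. Pfkm, the muscle-type subunit, ranged from 9.79 to 18.7 CPM. Which of Pfkp and Pfkl led could not be settled, because the order per kb turned with the transcript length used. With the median length of the annotated coding transcripts, the within-animal log2 difference of Pfkp over Pfkl was 0.81 and Pfkp was higher in 4 of 4 animals. With the principal transcript it was 0.28, higher in 2 of 4, and with the longest transcript -0.79, higher in 0 of 4. Pfkm was below both in all 4 animals under every length. The locus of Pfkp overlaps Pitrm1 on the other strand, and the sources used here do not say whether the counts kept strand.

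The Pfkfb genes make and break fructose-2,6-bisphosphate, the activator of phosphofructokinase-1. Pfkfb2, the heart-type enzyme, had 9.55, 7.72, 15.4 and 5.50 CPM, in a locus it shares with the overlapping gene Gm29427. Pfkfb3, the inducible form with the highest kinase to phosphatase ratio, had 15.7, 6.50, 7.71 and 9.03 CPM. Pfkfb3 and Pfkfb2 did not differ beyond their spread: the log2 difference per kb was 0.03 with the median and -0.02 with the principal length, and Pfkfb3 was higher in 2 of 4 animals under each. Pfkfb4 ranged from 2.05 to 9.87 CPM. Pfkfb1, a liver and muscle form, had 1.26, 0.439, 0.315 and 5.76 CPM and was not called (edgeR adjusted p = 0.312), with animal 4 alone well above the threshold. No gene of this step led in every animal. The summed step was 6.82 ± 0.428 CPM per kb of principal transcript and 11.7 ± 1.68 CPM per kb with the median length, so its spread depended on the length used.

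Aldolase was the highest step per kb. Aldoa, the ubiquitous aldolase (chromosome 7, 126795234 to 126800751, minus strand), had 1315, 1282, 1355 and 1202 CPM (1289 ± 64.9 CPM). It supplied 98.4 to 99.2% of aldolase per kb, although Aldoc, the form of brain, was also called at 20.6 to 38.3 CPM. The annotation carries more than 1 gene ID under the symbol Aldoa, and the deposited row cannot be split between them. Tpi1, which interconverts the triose phosphates, had 208, 305, 288 and 222 CPM (256 ± 48.1 CPM). Animals 2 and 3 were above animals 1 and 4.

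Gapdh, which makes the first NADH of the pathway (chromosome 6, 125161715 to 125166467, minus strand), had 282, 252, 315 and 204 CPM (263 ± 47.4 CPM). Rows of near-identical copies held further counts. Processed pseudogenes are DNA copies of an mRNA, and 77 genes of the table had a transcript matching Gapdh at 95% identity or more over at least 200 bases. Of these, 53 had counts. Gm12671 on chromosome 4 and Gm10359 on chromosome 5 held the same values as each other, 189, 244, 263 and 206 CPM in each row. Both match the 1002 coding bases of Gapdh with 0 differences. The first 60 coding bases from the GENCODE transcripts show why the rows are uncertain, since a read from this stretch fits all of them:
Gapdh: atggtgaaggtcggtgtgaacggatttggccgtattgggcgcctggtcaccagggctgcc
Gm12671: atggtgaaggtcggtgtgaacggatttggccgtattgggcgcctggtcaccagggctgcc
Gm10359: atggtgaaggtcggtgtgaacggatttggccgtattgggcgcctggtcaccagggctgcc

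Gapdh and its copies together reached 675, 809, 866 and 651 CPM (750 ± 104 CPM), and the copies held 58.3, 68.8, 63.6 and 68.7% of that sum. Adding them made the level 2.85 times that of the Gapdh row, the largest such change among the 9 genes of the list that had copies. Animal 3 was highest and animal 4 lowest with or without the copies. Gapdhs, the sperm form, had 0.716 and 0.755 CPM in animals 1 and 3, was at 0 in animals 2 and 4, and was not called (edgeR adjusted p = 0.997).

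Pgk1, phosphoglycerate kinase, which makes the first ATP of the pathway (chromosome X, 106187100 to 106203699), had 61.6, 94.7, 70.3 and 70.2 CPM (74.2 ± 14.3 CPM). Its copies changed places between animals. Pgk1-rs7 on chromosome 12 had 0.882, 33.4, 23.8 and 0.443 CPM, while Gm5537 on chromosome 3 had 22.0, 0.0233, 0.00709 and 10.8 CPM. Over the coding bases aligned, 1253 for Pgk1-rs7 and 1252 for Gm5537, each had 0 differences from Pgk1. The sum of the 3 rows was 84.5, 128, 94.1 and 81.5 CPM, or 1.31 times the Pgk1 row. Pgk2, the sperm form, was at 0 in all 4 animals. Pgam1, the non-muscle phosphoglycerate mutase, had 84.6, 139.6, 101 and 122 CPM (112 ± 24.1 CPM), and its copy Pgam1-ps2 had 6.15 to 16.4 CPM. Pgam2, the muscle form, had 0.656 and 0.231 CPM in animals 1 and 2 and 0 in the other animals. Bpgm, which makes the 2,3-bisphosphoglycerate of erythrocytes, was called at 3.85, 7.24, 4.72 and 4.30 CPM. Animals 2 and 3 were highest, as they were for the sum of 8 erythroid markers, which was 4.47, 48.3, 41.8 and 3.35 CPM. Of these markers 2 were called, Hbb-bs and Hba-a2, and Slc4a1 and Klf1 were at 0. The part of erythroid RNA in the level of Bpgm was not tested.

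Eno1, the enolase of most tissues (chromosome 4, 150236721 to 150248879, plus strand), had 470, 622, 584 and 379 CPM (514 ± 110.5 CPM). It supplied 94.7 to 96.9% of the step per kb. Eno2, known as the neuronal enolase, was called at 13.4 to 25.6 CPM. Of 8 neuronal markers 1 was called, Stmn2, and Snap25, Syt1 and Syp were at 0. The sum over the 8 was 56.8 to 125 CPM, of which Stmn2 alone held 53.5 to 122 CPM. Eno3, the muscle enolase, was called at 1.99 to 7.91 CPM. Of 10 muscle markers 1 was called, Actn3, with their sum between 5.82 and 8.02 CPM and Ckm and Myh4 at 0. The pseudogene Gm4735 on chromosome 2 held 41.0, 83.3, 17.6 and 77.7 CPM. It differs from Eno1 at 5 of 1302 aligned coding bases. The stretch of Eno1 coding bases 696 to 755, counted from 1 at the start codon, holds one of them, T726C (capital letter), so within the aligned coding bases only a read that crosses such a base fits 1 row better than the other:
Eno1: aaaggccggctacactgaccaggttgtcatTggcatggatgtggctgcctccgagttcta
Gm4735: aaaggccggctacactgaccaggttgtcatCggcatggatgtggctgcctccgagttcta

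With its copies, Eno1 reached 569 ± 109 CPM, 1.11 times its own row, and animal 2 stayed highest and animal 4 lowest. Pkm, whose transcripts encode the M1 and M2 forms of pyruvate kinase (chromosome 9, 59656368 to 59679375, plus strand), had 816, 995, 795 and 686 CPM (823 ± 128 CPM). Counts per gene do not tell the M1 and M2 transcripts apart. Pklr, the liver and erythrocyte form, was at 0 in all 4 animals. Taking 3 counts over the group (0.171 CPM) as the upper limit for Pklr, Pkm was at least 5757-fold higher than Pklr per kb of principal transcript.

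**Figure D2:**
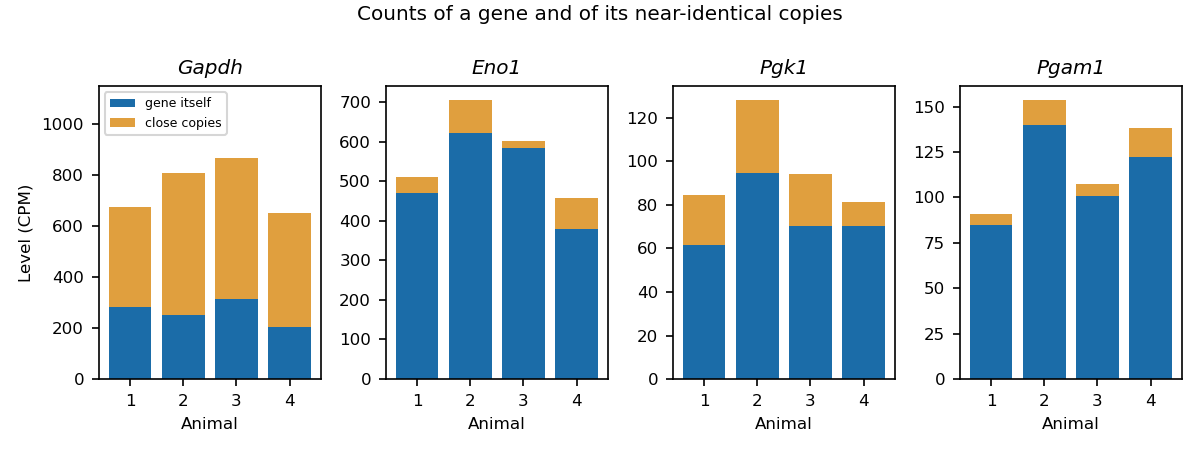
CPM of Gapdh, Eno1, Pgk1 and Pgam1 (lower bars) with the summed CPM of their near-identical copies stacked above, 1 bar per animal and a separate linear axis from 0 for each gene. The copies held 58.3 to 68.8% of the Gapdh sum and 6.03 to 11.8% of the Pgam1 sum.

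Both widely expressed subunits of lactate dehydrogenase were called, and neither led in every animal. Ldha, the muscle-type subunit that is linked to lactate formation (chromosome 7, 46841475 to 46855627, plus strand), had 192, 373, 211 and 187 CPM (241 ± 88.7 CPM). Ldhb, the heart-type subunit (chromosome 6, 142490249 to 142507957, minus strand), had 298, 155, 225 and 171 CPM (212 ± 64.8 CPM). Animal 2 had the highest Ldha and the lowest Ldhb, and the ranges overlapped. Per kb of principal transcript the log2 difference of Ldha over Ldhb was -1.07, 0.83, -0.53 and -0.31 in animals 1 to 4 (mean -0.27, SD 0.80), with Ldha higher in 1 of 4. With the median length the mean was 0.22 and Ldha was higher in 2 of 4, so the difference did not exceed the spread between animals under either length. Ldhb supplied 67.7, 36.0, 59.0 and 55.3% of the step. Ldhc, the sperm subunit, was at 0 in all 4 animals, and no germ cell marker was called.

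Of the 6 genes for the steps that gluconeogenesis does not share with glycolysis, 2 were called, Pck2 and G6pc3, a share not far from the 24.7% of all genes. Fbp1 and Fbp2, the fructose-1,6-bisphosphatases of liver and of muscle, were at 0 in all 4 animals. G6pc, the glucose-6-phosphatase of liver and kidney, was likewise at 0. Pck1, the cytosolic PEP carboxykinase, had 0.222 CPM in animal 2, which is 1 count, and was at 0 in the other animals. None of the 8 hepatocyte markers was called, and Alb, Ttr, Serpina1a, Fgb and Ahsg were at 0. Pck2, the mitochondrial PEP carboxykinase (chromosome 14, 55540266 to 55551242), had 41.8, 22.3, 29.1 and 41.2 CPM (33.6 ± 9.55 CPM). G6pc3, the ubiquitous glucose-6-phosphatase (chromosome 11, 102189620 to 102194081), had 24.8, 52.0, 33.0 and 22.4 CPM (33.0 ± 13.4 CPM). Against the same limit of 3 counts over the group, G6pc3 was at least 297-fold higher than G6pc per kb of principal transcript. Pck2 exceeded Pck1 by 5.12 on the log2 scale per kb of principal transcript and by 6.10 with the median length, in 4 of 4 animals, values that depend on the pseudocount of 0.5 CPM because Pck1 is nearly at 0. Pcx, the pyruvate carboxylase that feeds this route and is outside the 39, was called at 1.98 to 5.25 CPM.

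All 4 pyruvate dehydrogenase kinases were called, and Pdk2 led. Pdk2, the most widely expressed of the family (chromosome 11, 95026258 to 95041354), had 55.6, 46.7, 69.1 and 24.2 CPM (48.9 ± 18.9 CPM). It supplied 52.4 to 71.4% of the family per kb of principal transcript. Pdk1, Pdk3 and Pdk4 were each below Pdk2 in 4 of 4 animals, with log2 differences per kb of -2.99, -1.19 and -2.81 under the median length (exact two-sided sign-flip permutation p = 0.125 each, the smallest that 4 animals allow). Pdk1, a target of hypoxia-inducible factor, had 7.11, 23.1, 28.0 and 5.86 CPM (16.0 ± 11.2 CPM). Animals 2 and 3 were well above animals 1 and 4. Pdk3 ranged from 13.1 to 33.5 CPM. Pdk4, which is induced by fasting and fatty acids, had 6.42, 2.74, 5.69 and 8.49 CPM.

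Summed per step and per kb of principal transcript, aldolase stood at 864 ± 40.6 CPM per kb, with every animal above every animal of the next step. Pyruvate kinase (338 ± 52.6), lactate dehydrogenase (299 ± 46.1) and enolase (263 ± 54.1) followed, and each differed from its neighbour by less than the SD between animals. GAPDH (186 ± 33.6) and triosephosphate isomerase (159 ± 29.9) were likewise not separated by more than their spread, and glucose-6-phosphate isomerase came next at 112 ± 9.03 CPM per kb. Phosphoglycerate mutase, phosphofructokinase-1, phosphoglycerate kinase and the Pdk family lay between 36.0 and 63.2 CPM per kb. The lowest steps were those of glucose-6-phosphatase (21.0 ± 8.53), hexokinase (10.5 ± 3.61), PEP carboxykinase (7.29 ± 2.03), Pfkfb (6.82 ± 0.428) and bisphosphoglycerate mutase (2.26 ± 0.684), and fructose-1,6-bisphosphatase was at 0. The order shifted with the counting of copies and with the length. With the copies added GAPDH reached 529 ± 73.1 CPM per kb and moved to rank 2 of 17. With the median transcript length hexokinase moved to rank 9, against rank 13 with the principal transcript, because the median length of Hk1 is 581 bases and its principal transcript has 3851.

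**Figure D3:**
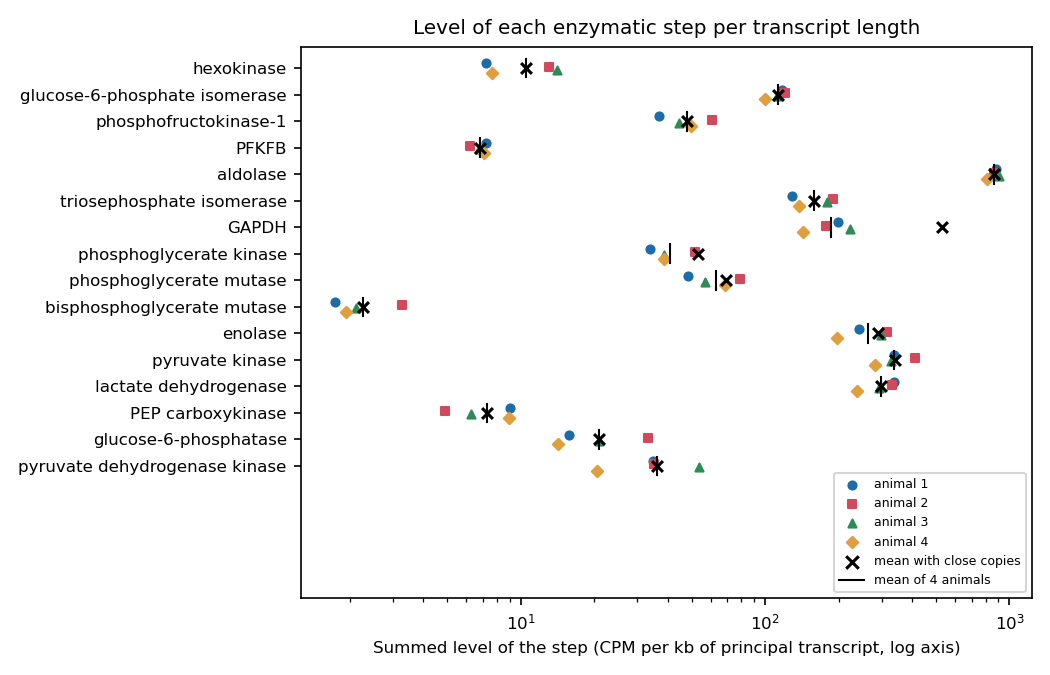
Summed level of the genes of each step in CPM per kb of principal transcript on a log axis, with 1 symbol per animal, a line at the mean of the 4 animals and a cross at the mean with close copies added. Aldolase lies highest at 864 CPM per kb, and the cross departs most from the line for GAPDH (529 against 186); fructose-1,6-bisphosphatase, at 0, is not drawn.

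Genes were compared as 24 pairs within each animal, of which 23 could be compared because Fbp1 and Fbp2 were both at 0. The pairs were isozymes of the same step, except Pgam1 with Bpgm, which are counted here as separate steps. With the median transcript length the gene listed first, usually the broadly expressed form, was higher per kb in all 4 animals in 18 pairs. In 5 of these the second gene was at 0 throughout, which leaves only that direction. The gene listed second was higher in all 4 animals in 3 pairs, those of Pdk1, Pdk3 and Pdk4 with Pdk2. With the principal transcript the first gene was higher in all 4 animals in 15 pairs, and 15 kept that direction under every length tried. The pairs were chosen with earlier results of these data known and several share a gene, so these counts only describe the list. Hk1 exceeded Hk2 by a log2 difference of 5.35 with the median and 3.60 with the principal length. Aldoa exceeded Aldoc by 6.90 and 6.29, Eno1 exceeded Eno2 by 5.38 and 5.19, and Eno1 exceeded Eno3 by 6.47 and 6.30, in the same order of lengths. For the pairs whose other gene was at 0, only bounds can be given. These bounds rest on the limit of 3 counts over the group. Per kb of principal transcript, Hk1 was at least 183-fold higher than Hk3, Pgk1 at least 388-fold higher than Pgk2 and Ldha at least 1096-fold higher than Ldhc. No pair can pass a threshold of 0.05, since the smallest exact p with 4 animals is 0.125.

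Between animals these genes varied about as much as other genes. Over the 21 genes with a mean of at least 10 CPM the median coefficient of variation between animals (CV) was 26.6%, against 22.9% over 8792 genes at that level. The lower quartile of all those genes was 14.5%, and Aldoa (5.03%), Gpi1 (8.03%) and Pfkp (11.7%) lay below it. The upper quartile was 34.2%, and Pfkl, Ldha, G6pc3, Pdk1, Pdk2 and Pdk3 lay above it. Quartiles cut off a fixed share of all genes by definition, so some of the 21 lying beyond them is no result in itself. Pdk1 had the highest CV of the 21, at 69.9%, higher than 97.7% of all genes at that level. Aldoa, by contrast, had a lower CV than all but 2.13% of them. These shares are not matched for level. Aldoa had a mean of 1289 CPM, which puts it among the few genes above 1000 CPM (129 of the table), and Pdk1 had 16.0 CPM. The part of the level in their CV was not tested.

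**Figure D4:**
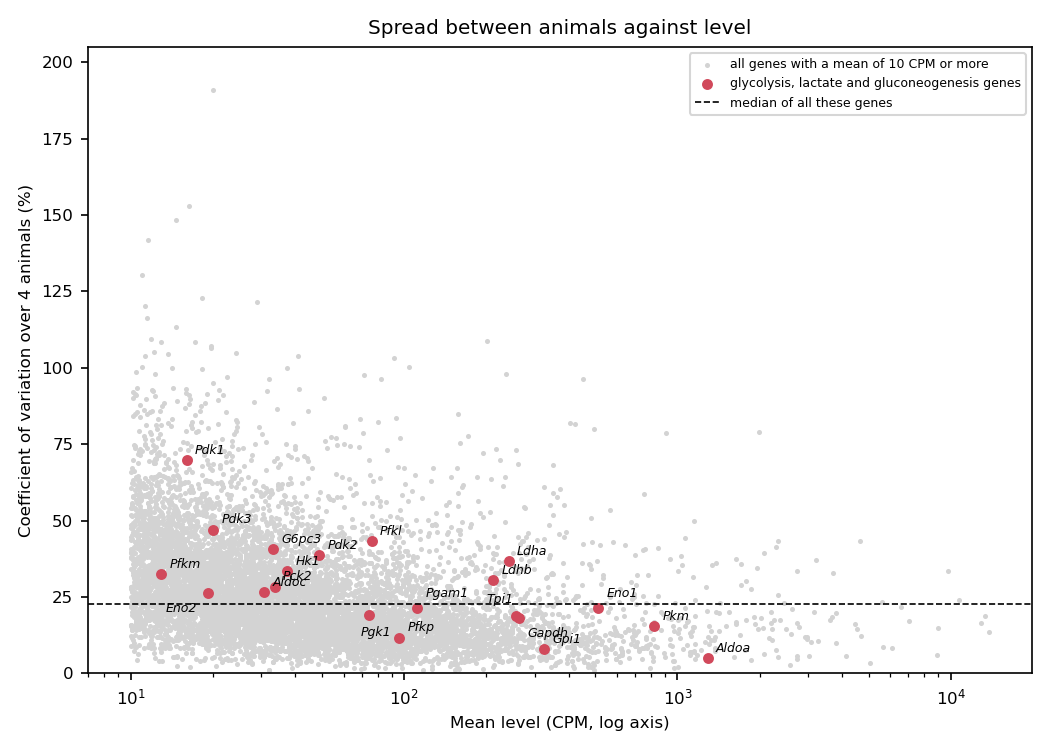
Coefficient of variation over the 4 animals in percent (linear axis) against the mean level in CPM (log axis) for 8792 genes with a mean of at least 10 CPM (grey) and the 21 enzyme genes at that level (red, named). The dashed line is the median of all these genes, 22.9%; Aldoa lies lowest of the 21 at 5.03% and Pdk1 highest at 69.9%.

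Animal 2 had the highest level for 11 of the 21 genes (52.4%), against 25.9% of all genes with a mean of at least 10 CPM. Animal 4 had the lowest level for 11 of the 21 (52.4%), against 25.3% of those genes. With TMM scaling the counts were 10 and 12 of 21, against 25.4% and 21.9% of all genes. The median log2 ratio of a gene to its mean over the animals was -0.18, 0.25, 0.07 and -0.26 in animals 1 to 4. Ldhb, Pck2 and Eno2 went against this order, being lowest in animal 2. Hk1, Tpi1, Eno1 and Pdk1 were among the genes with animals 2 and 3 above animals 1 and 4. The summed fibroblast markers also had animals 2 and 3 above animals 1 and 4, at 15100, 22467, 19829 and 14828 CPM, as did the erythroid markers given above, and their part in these differences was not tested.

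**Figure D5:**
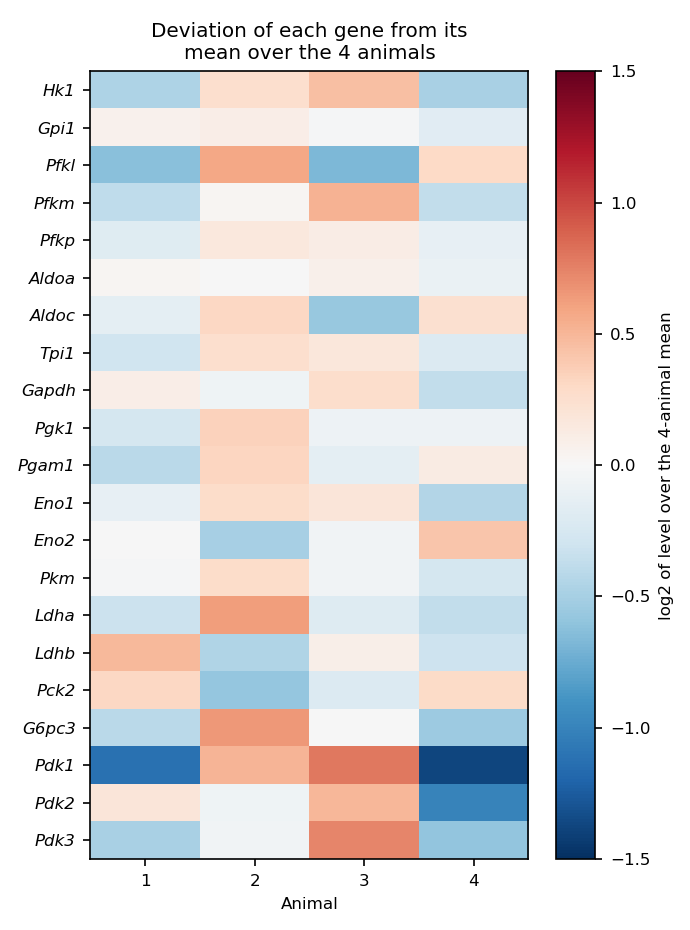
Deviation of each of the 21 genes with a mean of at least 10 CPM from its own mean over the 4 animals, as log2 of the level over that mean, with red above and blue below the mean. The column of animal 2 is mostly red and that of animal 4 mostly blue, with medians of 0.25 and -0.26.

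The sorted cells carried the markers of mesothelium. All 14 mesothelial markers were called, with summed levels of 17078 to 19127 CPM. Pdpn and Gpm6a among them, and Ptprc (CD45) among the leukocyte markers, were used for the sort and say nothing beyond it. Of the fibroblast markers 9 of 10 were called, with sums of 14828 to 22467 CPM. Those sums were above the mesothelial sums in animals 2 and 3 and below them in animals 1 and 4. Dcn alone had a mean of 12889 CPM. Mesothelial cells are known to express several of these matrix genes themselves, and the part of fibroblasts in these levels was not tested. Of 12 leukocyte markers 2 were called, Csf1r at 27.7 to 39.4 CPM and Fcgr3 at 1.11 to 11.3 CPM. The sums over all 12 were 33.8 to 58.9 CPM, with Itgam and S100a9 at 0. Of 8 adipocyte markers 3 were called, with sums of 39.0 to 528 CPM and Adipoq at 0, and Car3 alone held 497, 5.57, 71.8 and 230 CPM of those sums. Of 8 endothelial markers 3 were called, Esam, Kdr and Tek, with sums over all 8 of 388 to 425 CPM and Cdh5 at 0. Esam held 351 to 377 CPM of those sums and Kdr 34.8 to 66.3 CPM.

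The genes that bring the substrate in and take lactate out were also measured. Of 12 hexose transporters 4 were called (33.3%), a share not far from the 24.7% of all genes. The median of the mean levels over the 12 was 0.468 CPM, against 0 over all genes of the table. The 4 called were Slc2a10 (19.8 ± 5.98 CPM), Slc2a1, the GLUT1 transporter of most cells (16.8 ± 8.69 CPM), Slc2a3, the high-affinity GLUT3 transporter (14.9 ± 7.27 CPM) and Slc2a8 (9.25 ± 2.29 CPM). Slc2a1 had 19.4, 26.3, 16.0 and 5.49 CPM, with animal 2 highest and animal 4 lowest. The same held in 5 of the 21 enzyme genes at 10 CPM or more (Gpi1, Eno1, Pkm, Ldha and G6pc3). The share of all genes with animal 2 highest and animal 4 lowest was not determined, so no link is drawn from this count. The insulin-responsive transporter Slc2a4 was at 0 in all 4 animals, as were Slc2a6, Slc2a9 and Slc5a2. For lactate and pyruvate transport 5 of 8 genes were called (62.5%, against 24.7% of all genes, median 18.2 CPM). Bsg, the chaperone of the monocarboxylate transporters, had 1365 ± 150 CPM, Slc16a1, the transporter MCT1, had 328 ± 55.5 CPM, and Mpc1 of the mitochondrial pyruvate carrier had 225 ± 26.3 CPM. Slc16a3, the transporter MCT4 of strongly glycolytic cells, had 0.822, 4.42, 0.945 and 1.33 CPM and was not called (edgeR adjusted p = 0.334). The lowest of the list was Slc16a8 at a mean of 0.157 CPM.

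Downstream of pyruvate, 8 of 9 genes of the pyruvate dehydrogenase complex and its phosphatases were called (88.9%, against 24.7% of all genes, median 24.3 CPM). Pdha1, the E1 alpha subunit that the Pdk enzymes phosphorylate, had 312 ± 75.8 CPM, Dld 88.6 ± 8.75 CPM and Pdhb 45.5 ± 4.18 CPM, while the testis form Pdha2 was at 0. Of the pentose phosphate pathway, which branches off at glucose-6-phosphate, 8 of 9 genes were called (88.9%, against 24.7% of all genes, median 36.3 CPM). H6pd, the dehydrogenase of the endoplasmic reticulum, had 181 ± 69.8 CPM, Taldo1 178 ± 34.2 CPM and Tkt 105 ± 4.64 CPM. The lowest was Tktl1, at 0.105 CPM. Of 9 other enzymes of glycolysis and gluconeogenesis 6 were called (66.7%, against 24.7% of all genes, median 5.63 CPM). Ldhd had 12.0 ± 5.13 CPM, Adpgk 10.1 ± 5.21 CPM and Tigar 7.16 ± 5.69 CPM.

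Among 13 regulators of these genes 11 were called (84.6%, against 24.7% of all genes, median 30.6 CPM). Txnip, which limits glucose uptake and is induced by glucose, had 882 ± 172 CPM, Arnt, the partner of the hypoxia-inducible factors, 54.7 ± 12.3 CPM and Myc 40.5 ± 8.22 CPM. The lowest was Mlxipl, the gene of ChREBP, at 0.262 CPM. Hif1a had 23.1, 44.0, 34.8 and 20.3 CPM, with animals 2 and 3 above animals 1 and 4, as for Pdk1 and Hk1. Of other genes known to respond to hypoxia 9 of 11 were called (81.8%, against 24.7% of all genes, median 37.7 CPM). Bnip3 had 519, 258, 191 and 507 CPM, Bnip3l 339 ± 35.3 CPM and Ndrg1 213, 135, 182 and 271 CPM. The lowest of the list was Ankrd37, at 1.68 CPM. The sum over the 11 genes was 1312, 937, 918 and 1522 CPM, with animals 1 and 4 above animals 2 and 3, the reverse of Hif1a. Vegfa, within that list, ranged from 1.24 to 6.04 CPM and was highest in animals 2 and 3. The part of any of these regulators in the levels of the enzymes was not tested.

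The enzyme genes that were called and those that were not differed in their promoters, as called and uncalled genes did in general. Promoters were taken as the RefSeq window of 300 bases around the first listed start of each gene (GRCm38.p6), which was found for all 39. The ratio of observed to expected CpG had a median of 0.695 for the 28 called and 0.291 for the 11 not called. Over all genes in both tables the medians were 0.777 for 8878 genes called and 0.256 for 10264 not called, a difference in the same direction. A ratio of at least 0.6 was found in 18 of the 28 and 0 of the 11, against 74.4% and 21.2% of all genes called and not called. ACGTG or GCGTG, the core letters of the hypoxia response element, was searched on both strands and occurred in 21 of the 28 (75%) and 4 of the 11 (36.4%). In all genes the shares were 64.3% of those called and 34.4% of those not called, and 43.8% of all promoters. CACGTG, the E-box that overlaps ACGTG, occurred in 5 of the 28 (17.9%) and 1 of the 11 (9.09%), against 10.45% of all genes called, 5.47% of all genes not called and 7.24% of all promoters. The 250 bases upstream of the start are printed for Ldha and Ldhb, whose levels were not separable, and for Pklr, which was at 0, with matches to these motifs in capitals:
Ldha chr7:46845554-46845803 (plus strand): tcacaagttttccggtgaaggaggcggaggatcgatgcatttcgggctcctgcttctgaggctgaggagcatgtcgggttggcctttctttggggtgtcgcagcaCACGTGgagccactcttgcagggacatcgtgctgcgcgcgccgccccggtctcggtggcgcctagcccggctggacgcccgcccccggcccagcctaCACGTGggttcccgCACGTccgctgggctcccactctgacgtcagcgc
Ldhb chr6:142507958-142508207 (minus strand): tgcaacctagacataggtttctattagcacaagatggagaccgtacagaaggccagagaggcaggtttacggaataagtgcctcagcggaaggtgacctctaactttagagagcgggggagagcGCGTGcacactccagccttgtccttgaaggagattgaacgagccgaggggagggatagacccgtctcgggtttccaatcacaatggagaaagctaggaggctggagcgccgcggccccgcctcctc
Pklr chr3:89135892-89136141 (plus strand): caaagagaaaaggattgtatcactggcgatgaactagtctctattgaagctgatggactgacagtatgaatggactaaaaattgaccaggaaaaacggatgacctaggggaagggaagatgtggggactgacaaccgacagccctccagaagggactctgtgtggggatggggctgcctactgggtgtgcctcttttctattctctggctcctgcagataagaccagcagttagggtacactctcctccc

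The Ldha window held 5 matches of ACGTG and 2 of GCGTG over its 300 bases and both strands, with 30 CpG. Its 2 CACGTG sites each count on both strands for ACGTG. The Ldhb window held 0 of ACGTG and 1 of GCGTG, with 17 CpG. The Pklr window held no match and 3 CpG. These windows do not stand for the list, since Ldha held the most matches of all the enzyme genes. The called genes Aldoa, Pkm, Gpi1 and Tpi1 were among those that also held no match. Ldhc, Gapdhs and Fbp2, which were not called, held 2 each. As given above, matches occurred in 21 of the 28 called and 4 of the 11 not called. A match describes letters, not a bound factor. The first listed start is not always the main one. For Aldoa that window held 0 CpG, while its most CpG-rich listed window held 24.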

How the data were processed

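RNA from 4 sorted samples of 1 group was analysed from a single table of 48425 gene symbols. As deposited by the authors, each animal's column holds an estimated count for every gene. Per the submitters' processing notes, the mouse build is GRCm38.p5, and limma 3.38.3, edgeR 3.24.3 and kallisto 0.43.1 are listed without a stated role. The unit was read from the values: over 99.7% of nonzero values are not whole, and among genes with 1 transcript 66.6 to 70.5% of values between 0.5 and 2.5 lie no more than 0.1 from a whole number (chance gives 20%). Such counts grow with transcript length, and for near-identical transcripts they rest on the division of shared reads.

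Counts were rounded and tested with edgeR 4.0.16 (R 4.3.3) against 1 CPM, one-sided, scaled by column totals, with Benjamini-Hochberg adjustment over 48425 genes. Tested on simulated data with the common spread of these libraries (coefficient of variation 42.3%), the test called 1.5, 54.5 and 100% of 200 genes at 1, 2 and 4 CPM. Isozyme pairs were compared as within-animal log2 differences of (CPM + 0.5) per kb by an exact sign-flip permutation test. Lengths were the median of the protein-coding transcripts in GENCODE (GRCm38); the principal transcript was added after the data had been seen, because fragment annotations shorten the median. Close copies were found with BLAST 2.17.0 among GENCODE transcripts (95% identity over 200 bases), leaving out overlapping loci. CV were taken at a mean of 10 CPM or more. Alternatives were TMM (factors 0.961 to 1.064) and DESeq2 1.42.0 size factors, the DESeq2 and limma 3.58.1 voom tests, a filter at a mean of 1 count, thresholds of 0.5 and 2 CPM, a pseudocount of 0.1 CPM, other lengths, added copies and leaving out each animal.

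The members, gene lists, markers and pairs were chosen with earlier results of these data known. Named were all values of the genes that lead a step, and from each pathway list the 3 highest and the lowest by mean CPM. Values of other genes (Pfkl, Pfkfb3, Ldha, Pdk1, Pdk4, Hif1a, Slc2a1 and Slc16a3 among them) were named after they had been seen. Some genes of these lists are not reported here. Promoter sequences are from RefSeq (GRCm38.p6).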

Additional observations from a re-analysis of the deposited data

Results flagged for a closer look

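Ldha had 1 animal apart from the others. Animal 2 held 373 CPM, against 192, 211 and 187 CPM in animals 1, 3 and 4, and the gap from animal 2 to the next animal was 0.868 of the whole range, above the critical value of Dixon's test for 4 samples at the 95% level. Without animal 2 the mean was 197 CPM, against 241 CPM with it. In the same animal Ldhb was at its lowest, 155 CPM. The log2 difference per kb of Pfkfb3 over Pfkfb1 was 2.91, 2.60, 3.04 and 0.31 in animals 1 to 4 with the median transcript length, and animal 4 stood apart by 0.841 of the range. Without animal 4 the mean was 2.85, against 2.22 with it, and Pfkfb1 itself was not called. In all, 47 sets of 4 values were tested in this way, which were the levels of the 28 called genes, the differences of the 18 pairs in which neither gene was at 0 throughout, and the share of counts, and chance flags about 1 in 20 groups.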

How the results depend on the processing

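The count of 28 genes above 1 CPM was 27 to 29 under every alternative run and 28 without each animal in turn. The limma voom test gave 27, because Hk2 moved to an adjusted p of 0.0507, and a threshold of 0.5 CPM gave 29 by adding Pfkfb1. The share of counts taken by the 39 genes was 0.440 to 0.478% without each animal in turn, and 0.516% with close copies added, against 0.458% for the listed rows. Pfkp over Pfkl reversed with the longest transcript length, at -0.79 on the log2 scale. Pairs with the first gene higher in all 4 animals numbered 18, 16 without division by length and 15 with the longest or the principal transcript. The median CV of the 21 genes was 28.4% with TMM and 28.1% with DESeq2 size factors, against 26.6%. Of the values of single genes and pairs under the alternatives, 490 kept their call or moved by less than 1 SD between animals, 36 pair differences moved further with their direction unchanged, mostly with length or pseudocount, 1 reversed and 1 lost its call. Of the 490, 7 changed sign, all of them in pairs whose difference was within the spread. Ldha over Ldhb (0.22) was -0.31 with the longest and -0.27 with the principal transcript and -0.15 without animal 2, and Pfkfb3 over Pfkfb2 (0.03) was -0.05 and -0.02 with those lengths and -0.19 and -0.18 without animals 1 and 4. Genes near 1 CPM, such as Pfkfb1, lie where these 4 libraries cannot settle a call, and copies limit Gapdh most. No paired analysis was possible because the series has 1 group, so that no animals can be paired across groups. Isozymes were compared within each animal.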

Other observations

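Adm, the gene of adrenomedullin and a hypoxia-response gene, was singled out after its values had been seen. It had 26.4, 6.53, 24.7 and 91.9 CPM, with animal 4 highest and animal 2 lowest.

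When the most CpG-rich of all listed promoter windows of a gene was used in place of the first, a CpG ratio of at least 0.6 was found in 21 of the 28 enzyme genes called (75%) and 1 of the 11 not called, against 78.0% of all genes called and 22.5% of all genes not called.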
